A study of Mus musculus with 6 samples.

Results

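The blood endothelium is the cell layer that lines the arteries, capillaries and veins of a fat depot. Its genes were followed here through 35 members that were listed by name, of 55011 gene symbols in the deposited table: junction, receptor and transcription factor genes of adipose blood endothelium, each taken as the row of its symbol. All 35 had a row, and all 35 passed the filter on low counts. Visceral adipose tissue, the fat around the abdominal organs, was taken whole from male mice that were 30 weeks old. In both groups 14 weeks on LFD, a low-fat diet, preceded 16 weeks on HFD, a high-fat one, and the tissue was collected at zeitgeber time 0 h, when the light phase begins. The 6 libraries form a Bmal1WT group and a Bmal1KO group of 3 each, and all mice of both groups are C57BL/6 with Foxp3.Cre-YFP, a Cre recombinase tied to YFP under the control of Foxp3, which defines the regulatory T cell lineage. Bmal1 (Arntl) encodes a transcription factor of the circadian clock, and the labels call it KO in 1 group and WT in the other. A Cre driven by Foxp3 is active in regulatory T cells and not, as designed, in endothelium. The comparison therefore asks how the vessels' transcripts in fat differ between the groups. That Bmal1 is lost in Foxp3-expressing cells is read from the Cre and the KO label. Nothing in the labels says that the libraries are from different animals, and p-values therefore reflect only the spread between these samples.

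Endothelial cells are joined by adherens and tight junctions, sense vascular endothelial growth factors through receptor tyrosine kinases of the FLT and KDR type, and are kept quiescent by angiopoietin signalling through TIE receptors. Transcription factors of the ETS family, such as ERG, and of the SOXF family, such as SOX7 and SOX18, maintain endothelial identity. In adipose tissue the capillaries also move lipoprotein-derived fatty acids to the fat cells.

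The libraries held 6514620 to 9529198 counts, and Bmal1KO replicate 1 was the shallowest. Bmal1WT replicate 1 held 428 CPM (counts relative to the library size after edgeR's TMM scaling) over 20 genes of epididymis and testis, against 1.72 to 5.41 CPM in the other 5 libraries. Bmal1KO replicate 1 had a count on 30019 genes and the other 5 libraries on 19009 to 20145. The targeted gene Arntl had 273, 242 and 373 counts in Bmal1WT and 324, 289 and 314 in Bmal1KO, or 33.2 ± 6.16 CPM (SD, n = 3) over the Bmal1WT libraries and 40.1 ± 8.06 CPM over the Bmal1KO libraries (log2 fold change 0.27, SE 0.22). Foxp3 had 0, 0 and 0 counts in Bmal1WT and 3, 0 and 2 in Bmal1KO, too few for a comparison. Arntl in whole tissue comes from all of its cells, so these values do not check a deletion in Foxp3-expressing cells. Of 10 markers fixed for blood endothelium, all 10 had a count in all 6 libraries, the lowest being 3 counts of Erg in Bmal1KO replicate 2. Prox1, the transcription factor of lymphatic endothelium, had 0, 0 and 0 counts in Bmal1WT and 4, 0 and 4 in Bmal1KO.

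Of the 35 blood endothelial genes, 34 had a lower fitted level in Bmal1KO fat and 1, Calcrl, a higher one, where 48% of all 13859 genes tested were lower. The median log2 fold change of the 35 was -0.64, a level 1.55-fold lower, against 0.02 over all genes tested. No member passed the quasi-likelihood test of edgeR after Benjamini-Hochberg adjustment over all genes (0 of 35, background 0% of genes called). Their adjusted p ran from 0.318 for Crip2 to 0.935 for Myct1 in that edgeR test, and the smallest adjusted p of any gene was 0.265. At an unadjusted p under 0.05 there were 12 members, against 9.31% of all genes tested, made up of 11 lower members (31.4%, against 4.26% of all genes tested) and 1 higher member (against 5.05%). All 3 Bmal1KO libraries lay below all 3 Bmal1WT libraries for 8 members (22.9%, against 7.85% of all genes), and above them for 1 (against 7.83%). The members were chosen with earlier results of these data known. They share the same 6 libraries and are not replicates of one another.

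**Figure D1:**
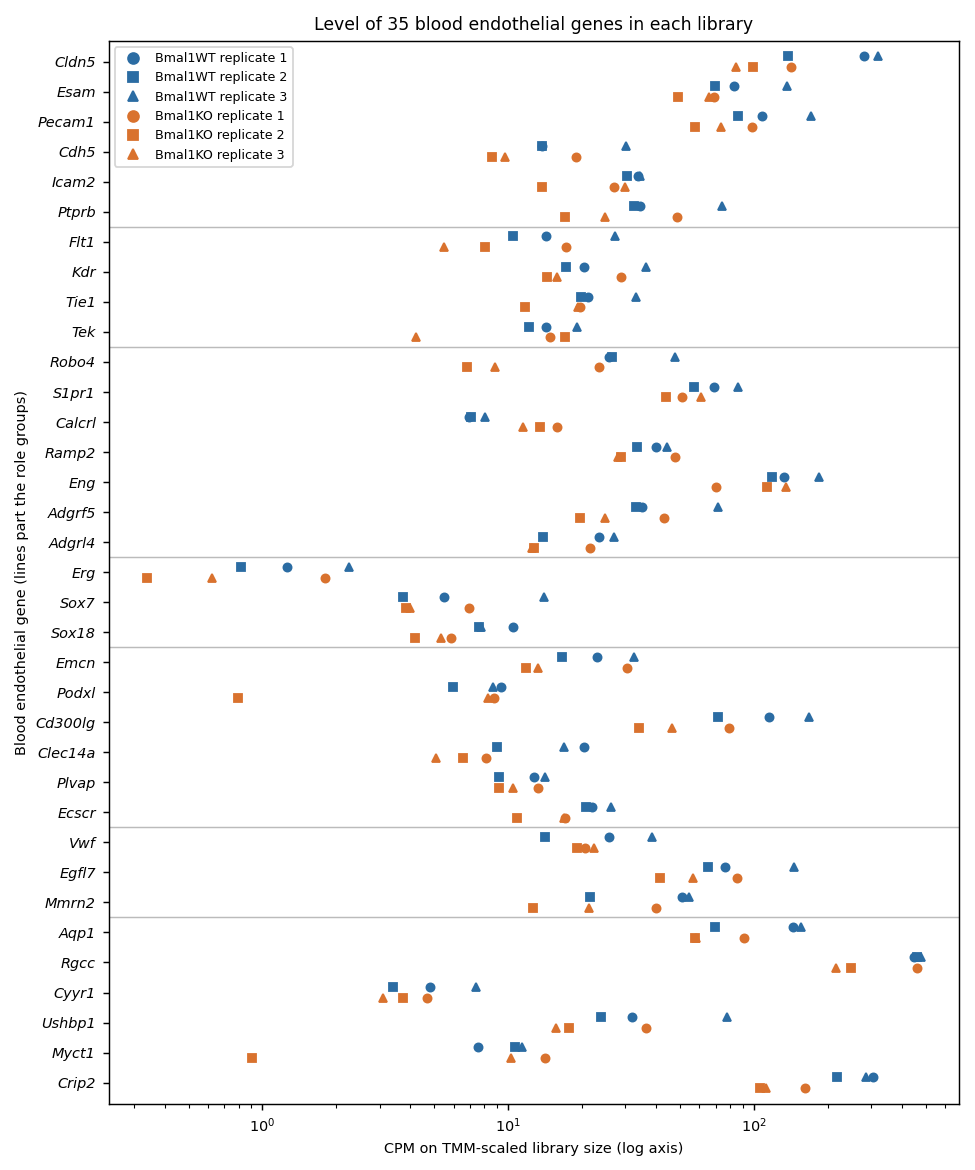
CPM on a log axis for each of the 35 blood endothelial genes in each library, with Bmal1WT in blue, Bmal1KO in orange and the replicate number given by the marker shape. Bmal1WT replicate 3 is the highest library for 28 of the 35 genes, and Bmal1KO replicate 2 the lowest for 21.

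The difference was carried unevenly by the libraries. The endothelial level, which is the mean over the members of log2 CPM minus each gene's mean over the 6 libraries, was 0.28, -0.10 and 0.76 in Bmal1WT and 0.20, -0.72 and -0.41 in Bmal1KO for replicates 1 to 3. Bmal1KO replicate 1 thus lay between Bmal1WT replicates 2 and 1, and the groups overlapped. By single genes, Bmal1KO replicate 1 was inside the Bmal1WT range for 22 members, below it for 10 and above it for 3. Bmal1KO replicate 2 was below all Bmal1WT libraries for 29 members and Bmal1KO replicate 3 for 27. Bmal1WT replicate 3 had the highest CPM for 28 members, Bmal1WT replicate 1 for 4 and Bmal1KO replicate 1 for 3. Summed over the members, 2270.0, 1753 and 2897 CPM were found in Bmal1WT replicates 1 to 3 and 1844, 1124 and 1241 CPM in Bmal1KO replicates 1 to 3. In whole tissue, fewer endothelial cells and less of these RNAs per cell cannot be told apart.

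Left out 1 at a time, the libraries moved the median log2 fold change of the members between -0.89 and -0.27. Without Bmal1WT replicate 3 it was -0.27, with 31 of 35 members lower. At an unadjusted p under 0.05 in edgeR's test that fit had 5 of 35 members, 4 of them lower, against 1113 of 14635 genes tested. Leaving out Bmal1WT replicate 3 brought the log2 fold changes of 22 members nearer to 0 by over 1.5 times, 3 of them with a changed sign. Among them Ptprb came to -0.16, Cdh5 to -0.15, Flt1 to -0.28, Esam to -0.31 and Pecam1 to -0.34. Leaving out Bmal1KO replicate 2 did so for 11 members and Bmal1KO replicate 3 for 5, while leaving out Bmal1KO replicate 1 took 17 members farther from 0 by over 1.5 times. Without Bmal1WT replicate 1, the library with the epididymis and testis counts, the median was -0.65 and no member passed (0.00682% of genes called). No member passed without Bmal1KO replicate 2 (0.0414% called). Without Bmal1KO replicate 1 the median was -0.89, and 3 members passed edgeR's test over all genes (Crip2, Rgcc and Robo4, all lower, 8.57% of members, where 1.09% of genes were called). Without both Bmal1WT replicate 1 and Bmal1KO replicate 1 the median was -0.96, and 3 of 34 members tested passed, again Crip2, Rgcc and Robo4 (8.82%, against 0.437% of genes). DESeq2 called 2 members lower, Cldn5 and Crip2 (5.71%, against 0.417% of genes). Voom in limma, weighting libraries by quality, called 0. At an unadjusted p under 0.05 voom had 12 of 35 members, 11 of them lower, against 1683 of 13859 genes tested. With no filter on low counts, edgeR called 6 members lower (17.1%, against 0.539% of genes): Aqp1, Cd300lg, Cldn5, Crip2, Robo4 and Ushbp1.

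**Figure D2:**
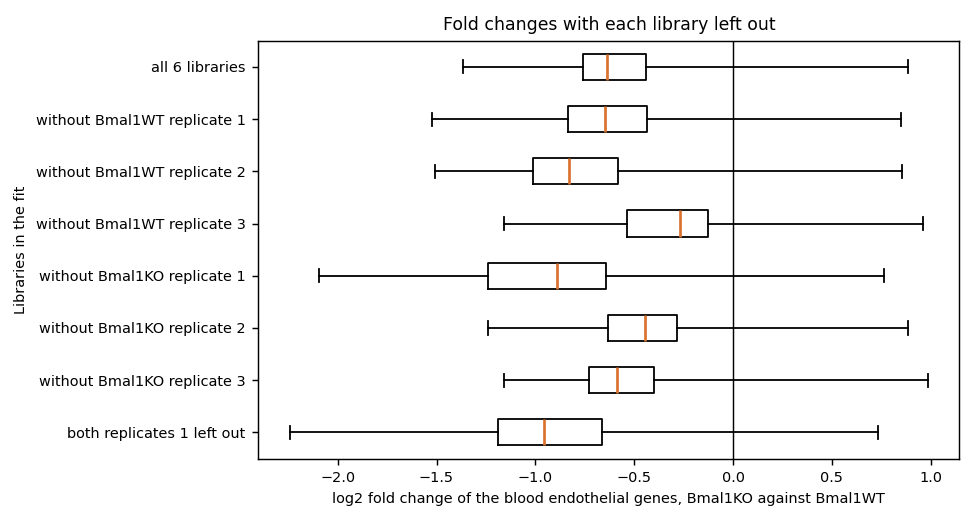
Log2 fold changes of the blood endothelial genes (box from the lower to the upper quartile, orange line at the median, whiskers to the lowest and highest gene) with all 6 libraries and with libraries left out. The median lies between -0.96 and -0.27 in all 8 fits shown, nearest 0 without Bmal1WT replicate 3.

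The 6 junction and adhesion genes were all lower, with a median log2 fold change of -0.65, and 0 of 6 passed the test over all genes. Cldn5 (mm10 chromosome 16, 18776847 to 18778262) encodes claudin-5, the main claudin of endothelial tight junctions. It was at 279.8, 137 and 321 CPM in Bmal1WT replicates 1 to 3 and 142, 99.7 and 84.7 CPM in Bmal1KO replicates 1 to 3. Bmal1WT replicates 1 and 3 stood above the rest, but Bmal1KO replicate 1 just exceeded Bmal1WT replicate 2, so the groups overlapped. The group levels were 246 ± 96.4 CPM (SD, n = 3) over the Bmal1WT libraries and 109 ± 29.4 CPM over the Bmal1KO libraries (log2 fold change -1.18, SE 0.30). Cdh5, which encodes the adherens junction protein VE-cadherin, was at 13.7, 13.7 and 30.1 CPM in the Bmal1WT libraries and 18.9, 8.61 and 9.68 CPM in the Bmal1KO libraries (log2 fold change -0.64, SE 0.40). Here 1 library, Bmal1WT replicate 3, stood above the rest, and Bmal1KO replicate 1 lay above the other 2 Bmal1WT libraries.

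Ptprb encodes VE-PTP, a phosphatase that acts on VE-cadherin and TIE receptors, and showed nearly the order of libraries seen for Cdh5, with 34.3, 32.6 and 74.0 CPM in the Bmal1WT libraries and 48.6, 17.0 and 24.8 CPM in the Bmal1KO libraries (log2 fold change -0.65, SE 0.41). Pecam1, the adhesion molecule CD31 that leukocytes and platelets also carry, was at 108, 86.6 and 171 CPM in the Bmal1WT libraries and 98.0, 57.8 and 73.8 CPM in the Bmal1KO libraries (log2 fold change -0.67, SE 0.27). Esam, an adhesion molecule of tight junctions, was at 83.4, 69.2 and 137 CPM in the Bmal1WT libraries and 69.2, 49.1 and 65.5 CPM in the Bmal1KO libraries (log2 fold change -0.66, SE 0.25). All Esam values of Bmal1KO lay below those of Bmal1WT, but Bmal1KO replicate 1 nearly tied with Bmal1WT replicate 2. Icam2, a ligand of leukocyte integrins, was tightly grouped in Bmal1WT at 32.9 ± 2.08 CPM (SD, n = 3). In Bmal1KO it had 26.9, 13.7 and 30.0 CPM (log2 fold change -0.49, SE 0.28). Its lower mean there came mostly from replicate 2.

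The 4 receptor tyrosine kinases were also all lower, by smaller amounts (median log2 fold change -0.45), and 0 of 4 reached even an unadjusted p under 0.05. Kdr, the main signalling receptor for VEGF-A, was at 20.4, 17.2 and 36.5 CPM in the Bmal1WT libraries and 28.9, 14.4 and 15.9 CPM in the Bmal1KO libraries (log2 fold change -0.33, SE 0.35). Without Bmal1WT replicate 3 its log2 fold change was 0.06, with the sign turned. Flt1, which binds VEGF-A tightly and also exists as a soluble decoy, was at 14.3, 10.4 and 27.2 CPM in the Bmal1WT libraries and 17.1, 8.04 and 5.46 CPM in the Bmal1KO libraries (log2 fold change -0.77, SE 0.46). Its lowest library was Bmal1KO replicate 3, and Bmal1KO replicate 1 lay inside the Bmal1WT range.

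Tie1, the partner receptor of TEK, was at 21.1, 19.8 and 33.1 CPM in the Bmal1WT libraries and 19.7, 11.7 and 19.2 CPM in the Bmal1KO libraries (log2 fold change -0.55, SE 0.30). The groups did not overlap, but Bmal1WT replicate 2 and Bmal1KO replicate 1 nearly tied. Tek, the angiopoietin receptor TIE2, was at 14.3, 12.2 and 19.1 CPM in the Bmal1WT libraries and 14.7, 17.0 and 4.22 CPM in the Bmal1KO libraries (log2 fold change -0.34, SE 0.44). Bmal1KO replicate 3 alone was low for Tek, while replicate 2, the lowest library for most members, was inside the Bmal1WT range. Without Bmal1KO replicate 3 the log2 fold change of Tek was 0.06.

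Among the 7 other receptors were both ends of the range of fold changes. Robo4 (mm10 chromosome 9, 37401897 to 37415115), a roundabout receptor that stabilises the vessel wall, had the most negative fold change of the 35. It was at 25.7, 26.5 and 47.7 CPM in Bmal1WT replicates 1 to 3 and 23.5, 6.79 and 8.81 CPM in Bmal1KO replicates 1 to 3. All Bmal1KO libraries lay below all Bmal1WT libraries, with Bmal1KO replicate 1 close under them and replicates 2 and 3 far under them. Its group levels were 33.3 ± 12.5 CPM (SD, n = 3) over the Bmal1WT libraries and 13.0 ± 9.10 CPM over the Bmal1KO libraries (log2 fold change -1.37, SE 0.44). With 1 library left out the log2 fold change ran from -2.09 to -1.01.

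Calcrl (mm10 chromosome 2, 84330626 to 84425411) was on the other side. It encodes the calcitonin receptor-like receptor, which forms the adrenomedullin receptor with RAMP2. It was at 6.96, 7.03 and 8.07 CPM in Bmal1WT replicates 1 to 3 and 15.8, 13.5 and 11.5 CPM in Bmal1KO replicates 1 to 3, from 60 to 75 counts per Bmal1WT library and 93 to 119 per Bmal1KO library. All 3 Bmal1KO libraries were higher, and the spread inside each group was small. The group levels were 7.35 ± 0.622 CPM (SD, n = 3) over the Bmal1WT libraries and 13.6 ± 2.13 CPM over the Bmal1KO libraries (log2 fold change 0.88, SE 0.29), and the adjusted p in edgeR's quasi-likelihood test was 0.431. With 1 library left out the log2 fold change stayed between 0.76 and 0.98. Ramp2, its accessory protein, was at 39.9, 33.4 and 44.3 CPM in the Bmal1WT libraries and 47.7, 28.8 and 27.9 CPM in the Bmal1KO libraries (log2 fold change -0.18, SE 0.24), with overlapping groups. Of the merged exon length of Ramp2, 33.4% is shared with the exons of Vps25 on the same strand, so reads there may belong to either gene.

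S1pr1, a receptor for sphingosine 1-phosphate that lymphocytes also carry, was at 68.6, 57.2 and 86.5 CPM in the Bmal1WT libraries and 50.8, 43.8 and 60.7 CPM in the Bmal1KO libraries (log2 fold change -0.45, SE 0.20). Eng, the TGF-beta and BMP co-receptor endoglin, was at 132, 118 and 184 CPM in the Bmal1WT libraries and 70.2, 113 and 135 CPM in the Bmal1KO libraries (log2 fold change -0.45, SE 0.25). For Eng, Bmal1KO replicate 1 was the lowest library, replicate 2 was just under the Bmal1WT range and replicate 3 inside it. The adhesion G protein-coupled receptors Adgrf5 (log2 fold change -0.68, SE 0.35) and Adgrl4 (log2 fold change -0.46, SE 0.32) were both highest in Bmal1WT replicate 3, and without it their log2 fold changes were -0.22 and -0.26. Adgrf5 was at 34.9, 33.0 and 71.2 CPM in the Bmal1WT libraries and 43.2, 19.6 and 24.7 CPM in the Bmal1KO libraries. Adgrl4 was at 23.5, 13.8 and 27.0 CPM in the Bmal1WT libraries and 21.5, 12.8 and 12.5 CPM in the Bmal1KO libraries.

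**Figure D3:**
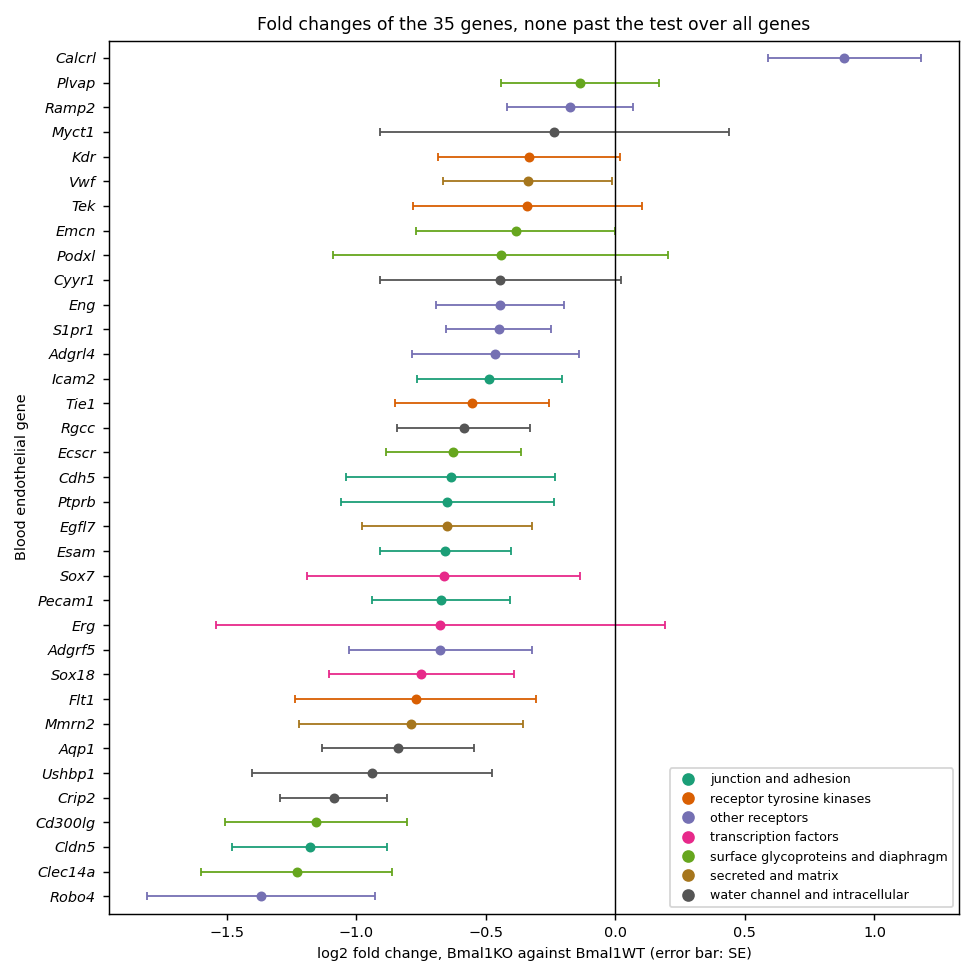
Log2 fold change with SE of each blood endothelial gene, Bmal1KO against Bmal1WT, coloured by role and sorted. The genes run from -1.37 for Robo4 to 0.88 for Calcrl, and 34 of 35 lie below 0.

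The start-site windows of Robo4 and Calcrl, the 2 ends of the range, and of the receptor pair Flt1 and Kdr are shown to let their sequences be compared. Each window runs from 250 bases before the annotated start to 50 after it, in RefSeq's GRCm38.p6 build (the assembly of mm10), 5′ to 3′ on the gene's strand. Capitals mark AGGAAG or GGAAGT, forms of the ETS core, and AACAAT, a SOX form, on either strand.
Robo4, chr9:37401722-37402021, plus strand: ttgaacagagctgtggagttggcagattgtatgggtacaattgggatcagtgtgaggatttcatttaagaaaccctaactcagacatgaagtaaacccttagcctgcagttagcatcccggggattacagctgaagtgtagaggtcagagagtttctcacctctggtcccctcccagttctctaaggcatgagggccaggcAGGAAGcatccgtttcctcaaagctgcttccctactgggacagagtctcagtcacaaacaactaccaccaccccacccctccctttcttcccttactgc
Calcrl, chr2:84425217-84425516, minus strand: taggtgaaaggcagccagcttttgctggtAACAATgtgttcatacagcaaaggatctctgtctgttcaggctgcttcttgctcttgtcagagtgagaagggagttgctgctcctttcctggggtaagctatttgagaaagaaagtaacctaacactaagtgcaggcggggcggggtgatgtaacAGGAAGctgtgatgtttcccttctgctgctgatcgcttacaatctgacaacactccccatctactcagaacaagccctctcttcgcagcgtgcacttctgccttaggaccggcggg
Flt1, chr5:147725962-147726261, minus strand: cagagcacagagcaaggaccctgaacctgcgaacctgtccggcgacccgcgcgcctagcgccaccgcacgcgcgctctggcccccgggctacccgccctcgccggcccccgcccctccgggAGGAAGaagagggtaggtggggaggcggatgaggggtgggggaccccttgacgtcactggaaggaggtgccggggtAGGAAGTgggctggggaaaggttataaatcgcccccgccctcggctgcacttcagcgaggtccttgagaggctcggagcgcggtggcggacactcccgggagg
Kdr, chr5:75978406-75978705, minus strand: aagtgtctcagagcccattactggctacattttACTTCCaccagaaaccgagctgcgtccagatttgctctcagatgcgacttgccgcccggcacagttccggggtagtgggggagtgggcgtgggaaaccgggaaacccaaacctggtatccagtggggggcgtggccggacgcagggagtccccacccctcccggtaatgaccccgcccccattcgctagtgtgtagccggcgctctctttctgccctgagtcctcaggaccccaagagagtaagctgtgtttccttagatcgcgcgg
AGGAAG began at base 202 of the Robo4 window, at base 185 of the Calcrl window and at bases 122 and 198 of the Flt1 window, where the last was followed by T and so also gave GGAAGT at base 199. In the Kdr window only GGAAGT was found, on the opposite strand at base 34, and AACAAT was found at base 30 of the Calcrl window.

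The gene with the most negative fold change and the gene with the only positive one thus both held AGGAAG. RefSeq windows were found for 20 of the 35 members, 26 windows in all. AGGAAG was in 16 of the 26 (61.5%), against 35.4% of all 32851 windows, and the longer CAGGAAG, which contains it, was in 9 of 26 (34.6%, against 13.3%). GGAAGT, which overlaps AGGAAG where T follows, was in 10 of 26 (38.5%, against 23.8%) and CCGGAAG in 0 (against 8.9%). AACAAT was in 5 of 26 (19.2%, against 10.7%), the GATA form GATAAG in 3 (11.5%, against 7.4%) and the KLF form CACCC in 18 (69.2%, against 57.5%). CACGTG, the E-box that CLOCK and BMAL1 bind, was in 0 of the 26 windows, against 7.2% of all windows. Both strands were searched for all 8 motifs. A match says only that these letters occur in the window.

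The 3 transcription factors had few counts. Erg, the ETS factor that maintains endothelial identity, had only 11, 7 and 21 counts in Bmal1WT and 12, 3 and 5 in Bmal1KO (log2 fold change -0.68, SE 0.87). Its SE was the largest of the 35. Sox7 was at 5.47, 3.75 and 14.0 CPM in the Bmal1WT libraries and 6.92, 3.85 and 3.97 CPM in the Bmal1KO libraries (log2 fold change -0.66, SE 0.53). Bmal1WT replicate 3 stood apart for Sox7, and without it the log2 fold change was 0.09. Sox18, its relative in the SOXF family, was at 10.5, 7.62 and 7.75 CPM in the Bmal1WT libraries and 5.86, 4.19 and 5.33 CPM in the Bmal1KO libraries (log2 fold change -0.75, SE 0.36). Its groups did not overlap, and its highest library was Bmal1WT replicate 1.

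All 6 surface glycoprotein and diaphragm genes were lower (median log2 fold change -0.53), with 0 of 6 past the test. Clec14a, a C-type lectin of sprouting endothelium that binds MMRN2, was at 20.4, 9.02 and 16.9 CPM in Bmal1WT replicates 1 to 3 and 8.12, 6.57 and 5.09 CPM in Bmal1KO replicates 1 to 3. The groups did not overlap. Their levels were 15.4 ± 5.83 CPM (SD, n = 3) over the Bmal1WT libraries and 6.59 ± 1.52 CPM over the Bmal1KO libraries (log2 fold change -1.23, SE 0.37). Cd300lg, the sialomucin nepmucin of capillary endothelium, was at 115, 71.6 and 168 CPM in the Bmal1WT libraries and 79.4, 34.1 and 46.3 CPM in the Bmal1KO libraries. Bmal1KO replicate 1 exceeded only Bmal1WT replicate 2 there (log2 fold change -1.16, SE 0.35).

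Ecscr, a regulator of endothelial migration, was at 21.9, 20.7 and 26.2 CPM in the Bmal1WT libraries and 17.0, 10.9 and 16.9 CPM in the Bmal1KO libraries (log2 fold change -0.63, SE 0.26), with no overlap. Emcn, the sialomucin endomucin of capillaries and veins, was at 22.9, 16.6 and 32.6 CPM in the Bmal1WT libraries and 30.5, 11.8 and 13.3 CPM in the Bmal1KO libraries (log2 fold change -0.39, SE 0.38). For Emcn, Bmal1KO replicate 1 was second only to Bmal1WT replicate 3. Plvap forms the diaphragms of fenestrae and caveolae and had the fold change nearest to 0 of the 35, at 12.8, 9.14 and 14.1 CPM in the Bmal1WT libraries and 13.2, 9.17 and 10.4 CPM in the Bmal1KO libraries (log2 fold change -0.14, SE 0.31). Podxl, the sialomucin podocalyxin that mesothelium also expresses, was at 9.35, 5.98 and 8.72 CPM in the Bmal1WT libraries and 8.72, 0.793 and 8.31 CPM in the Bmal1KO libraries (log2 fold change -0.44, SE 0.65). For Podxl the libraries lay between 5.98 and 9.35 CPM except Bmal1KO replicate 2, which held 7 counts, and without that library the log2 fold change was 0.08.

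The secreted and matrix genes were lower in all 3 cases, with 0 of 3 past the test and 0 at an unadjusted p under 0.05. Mmrn2, the matrix ligand of CLEC14A, was at 50.9, 21.6 and 54.5 CPM in the Bmal1WT libraries and 40.0, 12.6 and 21.3 CPM in the Bmal1KO libraries (log2 fold change -0.79, SE 0.43). Egfl7, a secreted factor of growing vessels whose gene also hosts Mir126a, was at 76.2, 65.4 and 146 CPM in the Bmal1WT libraries and 85.6, 41.3 and 56.5 CPM in the Bmal1KO libraries (log2 fold change -0.65, SE 0.33). Without Bmal1WT replicate 3, its highest library, the log2 fold change of Egfl7 was -0.21. Of its merged exons, 11.2% overlap Agpat2 and other genes, so a part of its counts may be theirs. Vwf, von Willebrand factor, which platelets also contain, was at 25.7, 14.2 and 38.6 CPM in the Bmal1WT libraries and 20.6, 19.0 and 22.5 CPM in the Bmal1KO libraries (log2 fold change -0.34, SE 0.32). The 3 Bmal1KO values of Vwf were close together and inside the Bmal1WT range. Without Bmal1WT replicate 3 the log2 fold change was 0.06.

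The water channel and the 5 intracellular or little-known genes were all lower (median log2 fold change -0.71). Crip2 (mm10 chromosome 12, 113140236 to 113145506), a LIM domain protein that smooth muscle also expresses, had the smallest p of the 35 and ranked 9 among all genes tested. It was at 305, 218 and 285 CPM in Bmal1WT replicates 1 to 3 and 162, 106 and 112 CPM in Bmal1KO replicates 1 to 3. The lowest Bmal1WT library was well above the highest Bmal1KO library. Its group levels were 269 ± 45.8 CPM (SD, n = 3) over the Bmal1WT libraries and 127 ± 30.6 CPM over the Bmal1KO libraries (log2 fold change -1.09, SE 0.21), with an adjusted p of 0.318 in edgeR's quasi-likelihood test. The adjusted p of Crip2 over the alternatives ran from 1.03e-05 (no filter) to 0.695, and its log2 fold change with 1 library left out from -1.30 to -0.98.

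Aqp1, the water channel of capillary endothelium that red cells and mesothelium also carry, was at 145, 69.5 and 156 CPM in the Bmal1WT libraries and 91.0, 57.9 and 58.1 CPM in the Bmal1KO libraries (log2 fold change -0.84, SE 0.29). Rgcc, a regulator of the cell cycle that responds to complement, had the highest level per kilobase of the 35. It was at 449.7, 463 and 478 CPM in the Bmal1WT libraries and 462, 248 and 217 CPM in the Bmal1KO libraries (log2 fold change -0.59, SE 0.26). The 3 Bmal1WT libraries and Bmal1KO replicate 1 lay close together for Rgcc, and only Bmal1KO replicates 2 and 3 were low. Ushbp1 was at 32.0, 23.8 and 77.5 CPM in the Bmal1WT libraries and 36.5, 17.7 and 15.6 CPM in the Bmal1KO libraries (log2 fold change -0.94, SE 0.46). Without Bmal1WT replicate 3 the log2 fold change of Ushbp1 was -0.27. Cyyr1, a cysteine and tyrosine-rich membrane protein, was at 4.79, 3.40 and 7.42 CPM in the Bmal1WT libraries and 4.66, 3.74 and 3.10 CPM in the Bmal1KO libraries (log2 fold change -0.44, SE 0.46). Myct1, a direct target of endothelial ETS factors, was at 7.53, 10.7 and 11.4 CPM in the Bmal1WT libraries and 14.1, 0.906 and 10.3 CPM in the Bmal1KO libraries (log2 fold change -0.24, SE 0.67). As for Podxl, only Bmal1KO replicate 2 was low, with 8 counts, and without it the log2 fold change of Myct1 was 0.30.

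Levels between genes can be set side by side only per length. Per kilobase of merged exon, the Bmal1WT mean was 505 CPM for Rgcc, 174 for Cldn5 and 128 for Crip2, then 46.9 for Aqp1 and 43.2 for Cd300lg. In Bmal1KO these 5 were at 336, 76.7, 60.4, 26.2 and 19.5 CPM per kilobase. The receptor tyrosine kinases were lower per kilobase, with Kdr at 2.74, Flt1 at 1.28, Tie1 at 5.02 and Tek at 3.22 CPM per kilobase in Bmal1WT. Erg, at 0.417, was the lowest of all 35. The junction genes followed the order Cldn5, Esam (33.7), Pecam1 (19.6), Icam2 (17.3), Cdh5 (4.56) and Ptprb (3.52). Over the 3 Bmal1WT libraries the ranges of mean ± SD overlapped for Esam and Pecam1, for Pecam1 and Icam2, and for Cdh5 and Ptprb.

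The members varied together over the libraries. Each gene's log2 CPM was correlated over the 6 libraries with the mean of the other 34 members. Pearson's r had a median of 0.887, was above 0.8 for 26 of 35 members (74.3%), and ran from -0.462 for Calcrl to 0.985 for Cd300lg. Outside the members, 5.23% of genes tested had an r above 0.8 with the endothelial level, and the median over all genes tested was -0.003. Besides Calcrl, Eng (0.267) and Tek (0.391) were the least alike. These values rest on 6 shared libraries and describe them only.

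Relative to the other members in the same library, Robo4 and Cd300lg were lower in all 3 Bmal1KO libraries than in all 3 Bmal1WT libraries, with mean differences of -0.89 and -0.55 log2 units on average. Calcrl, Plvap and Ramp2 were higher in all 3, by 1.52, 0.51 and 0.43. Plvap and Ramp2 thus differed less than the members' common shift, while their own levels overlapped between groups. Egfl7 (0.0035) and Esam (0.01) stayed nearest to that shift. No share over all genes was computed for these relative values, so they only describe the genes named. In CPM, all Bmal1KO libraries lay below all Bmal1WT libraries for 7.85% of all genes tested and above them for 7.83%.

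Ratios between 2 members within a library do not depend on how libraries are scaled, and 10 pairs were compared. The Robo4 to Kdr log2 ratio was 0.33, 0.61 and 0.38 in Bmal1WT and -0.30, -1.06 and -0.83 in Bmal1KO for replicates 1 to 3, a difference of -1.17. The Ramp2 to Calcrl log2 ratio was 2.48, 2.21 and 2.43 in Bmal1WT and 1.58, 1.08 and 1.26 in Bmal1KO, a difference of -1.07. The Flt1 to Kdr log2 ratio was -0.51, -0.71 and -0.42 in Bmal1WT and -0.74, -0.82 and -1.50 in Bmal1KO, a difference of -0.47. Robo4 and Flt1 share Kdr as the reference. In these 3 pairs all Bmal1KO libraries lay below all Bmal1WT libraries. That gives p = 0.1 in a 2-sided exact permutation test, the smallest that 3 libraries against 3 allow, and 0.333 adjusted over the 10 pairs. The pairs were chosen with earlier results of these data known, and Robo4 and Calcrl are the ends of the range of fold changes. A lack of overlap in their pairs therefore adds no separate evidence. No share over other gene pairs was computed. The receptor partners Tie1 and Tek had log2 ratios of 0.56, 0.69 and 0.79 in Bmal1WT and 0.41, -0.53 and 2.12 in Bmal1KO, narrow in Bmal1WT and wide in Bmal1KO, with a difference of -0.01. Ptprb to Cdh5 was nearly constant, at 1.31, 1.23 and 1.29 in Bmal1WT and 1.34, 0.96 and 1.34 in Bmal1KO, and Esam to Pecam1 at -0.37, -0.32 and -0.32 in Bmal1WT and -0.50, -0.23 and -0.17 in Bmal1KO. The other 4 pairs (Clec14a to Mmrn2, Cldn5 to Cdh5, Ptprb to Tek and Sox18 to Sox7) overlapped, with differences of -0.32, -0.52, -0.14 and -0.25.

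**Figure D4:**
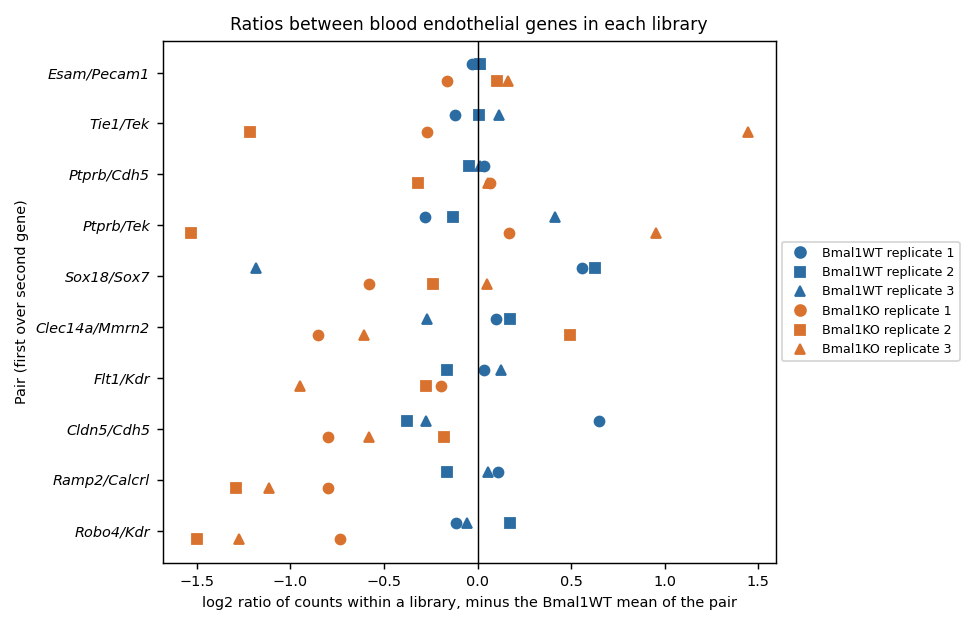
Log2 ratio of counts of 2 blood endothelial genes within each library, minus the pair's Bmal1WT mean, by library. For Robo4/Kdr, Ramp2/Calcrl and Flt1/Kdr the 3 Bmal1KO libraries all lie below the 3 Bmal1WT libraries, and for Tie1/Tek they scatter on both sides.

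Further endothelial genes outside the 35 were less uniform. Of 36 further pan-endothelial genes, 33 were tested, 21 were lower and 12 higher, 0 passed the test over all genes, and their median log2 fold change was -0.26. Ece1, the endothelin-converting enzyme, was at 118 ± 10.3 CPM (SD, n = 3) over the Bmal1WT libraries and 58.8 ± 15.5 CPM over the Bmal1KO libraries (log2 fold change -0.9997, SE 0.21). Its counts were 991, 940 and 1201 counts in Bmal1WT and 484, 372 and 496 in Bmal1KO, with no overlap once scaled. Gpr4, a proton-sensing receptor, had 89, 63 and 128 counts in Bmal1WT and 32, 11 and 34 in Bmal1KO (log2 fold change -1.62, SE 0.50). The tetraspanin Tspan18 had 352, 417 and 484 counts in Bmal1WT and 221, 184 and 251 in Bmal1KO (log2 fold change -0.73, SE 0.22). Procr, the endothelial protein C receptor that other cells also express, was on the other side, with 133, 158 and 152 counts in Bmal1WT and 243, 174 and 290 in Bmal1KO (log2 fold change 0.88, SE 0.27). Procr and Calcrl were thus both above their Bmal1WT range in all 3 Bmal1KO libraries.

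By vessel type, the list of capillary and lipid handling genes had the most negative median of the capillary, arterial, venous and lymphatic lists. Of its genes 10 of 11 tested were lower, with a median log2 fold change of -0.50 and 0 past the test. Their list level was 0.26, 0.19 and 0.59 in Bmal1WT and -0.10, -0.51 and -0.44 in Bmal1KO, so that all Bmal1KO libraries were below all Bmal1WT libraries. In summed CPM the groups overlapped, with 24230, 26080 and 27900 in Bmal1WT and 26110, 22120 and 18810 in Bmal1KO for replicates 1 to 3. Meox2, a homeobox factor of fatty acid transporting endothelium, had 233, 281 and 445 counts in Bmal1WT and 125, 103 and 133 in Bmal1KO (log2 fold change -1.20, SE 0.28). Car4, a carbonic anhydrase on capillary surfaces, had 559, 345 and 980 counts in Bmal1WT and 218, 273 and 132 in Bmal1KO (log2 fold change -1.39, SE 0.35), and Btnl9 had 91, 100 and 197 counts in Bmal1WT and 35, 63 and 26 in Bmal1KO (log2 fold change -1.47, SE 0.41). Cxcl12, a chemokine that stromal cells also make, had 2542, 1787 and 2544 counts in Bmal1WT and 1185, 1749 and 1516 in Bmal1KO (log2 fold change -0.45, SE 0.17). This list also holds Lpl, Cd36 and Fabp4, which fat cells express strongly.

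Of the arterial genes 9 of 10 tested were lower (median -0.40, 0 past the test), and Gja4, the gap junction protein connexin 37, had 136, 93 and 194 counts in Bmal1WT and 29, 40 and 38 in Bmal1KO (log2 fold change -1.79, SE 0.34). The groups did not overlap for Gja4, and its Bmal1KO libraries were close together. Of the venous genes, which include the member Vwf, 6 of 10 were lower (median -0.04), and the list level overlapped between groups. Lrg1, a secreted glycoprotein that fat cells also make, had 21546, 14353 and 17599 counts in Bmal1WT and 7241, 10025 and 7608 in Bmal1KO (log2 fold change -0.93, SE 0.20), while Nrp2, a co-receptor for VEGF-C that macrophages also express, had 388, 327 and 310 counts in Bmal1WT and 252, 627 and 617 in Bmal1KO (log2 fold change 0.68, SE 0.26). Lymphatic endothelial genes were tested in 4 of 9 cases and 4 of 4 were higher, by a median of 0.15 with 0 at an unadjusted p under 0.05. Lyve1, which macrophages also express, had 689, 420 and 190 counts in Bmal1WT and 349, 568 and 372 in Bmal1KO (log2 fold change 0.14, SE 0.38). With 0 or 4 counts per library, Prox1 could not be compared.

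**Figure D5:**
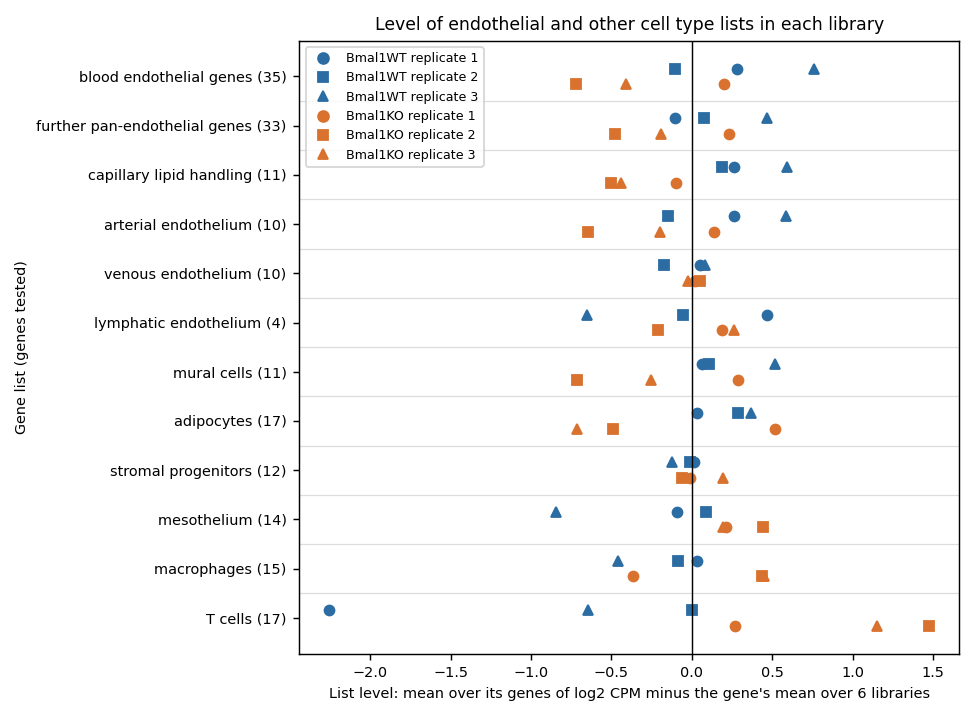
Level of each gene list in each library (mean over its tested genes of log2 CPM minus the gene's mean over the 6 libraries), with the number of genes tested in brackets. The blood endothelial, further pan-endothelial, capillary, arterial and mural cell lists are highest in Bmal1WT replicate 3 and lowest in Bmal1KO replicate 2. For T cells and mesothelium all Bmal1KO libraries lie above all Bmal1WT libraries.

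Ligands of the endothelial receptors were mixed, with 10 of 15 tested genes higher, 5 lower, a median of 0.13 and 0 past the test. Vegfa had only 12, 7 and 5 counts in Bmal1WT and 9, 11 and 2 in Bmal1KO, and Vegfb, a ligand of FLT1, had 155, 157 and 127 counts in Bmal1WT and 125, 109 and 105 in Bmal1KO (log2 fold change -0.17, SE 0.28). Angpt2, the context-dependent TEK ligand, had 138, 143 and 113 counts in Bmal1WT and 78, 200 and 353 in Bmal1KO (log2 fold change 0.81, SE 0.40), with its high values in Bmal1KO replicates 2 and 3. Adm, adrenomedullin, the ligand of the CALCRL and RAMP2 receptor, had 376, 196 and 310 counts in Bmal1WT and 100, 230 and 175 in Bmal1KO (log2 fold change -0.66, SE 0.29). Adm was thus on the lower side while Calcrl was on the higher side, and its groups overlapped. Slit2, a ligand of roundabout receptors, had 37, 24 and 8 counts in Bmal1WT and 46, 73 and 84 in Bmal1KO (log2 fold change 1.70, SE 0.54), with all Bmal1KO libraries above all Bmal1WT libraries.

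Genes of other cell types differed between these libraries too. Mural cell genes, of pericytes and smooth muscle that wrap the vessels, were lower in 10 of 11 cases (median -0.24, levels 0.06, 0.10 and 0.52 in Bmal1WT and 0.29, -0.72 and -0.26 in Bmal1KO), and Rgs5, a pericyte marker, had 335, 258 and 533 counts in Bmal1WT and 255, 110 and 137 in Bmal1KO (log2 fold change -0.90, SE 0.39). Adipocyte genes were lower in 15 of 17 cases (median -0.37), with levels of 0.03, 0.29 and 0.37 in Bmal1WT and 0.52, -0.49 and -0.72 in Bmal1KO. T cell genes were higher in 17 of 17 cases (median 1.90), with levels of -2.26, 0.00 and -0.65 in Bmal1WT and 0.27, 1.48 and 1.15 in Bmal1KO. Macrophage genes were higher in 13 of 15 and mesothelial genes in 14 of 14 cases, and 0 genes of any of these lists passed the test. In summed CPM the T cell list ran from 31.8 to 104 in Bmal1WT and from 127 to 298 in Bmal1KO. The mesothelial list ran from 299.6 to 585 and from 660.3 to 708, and all 17 and all 14 genes passed the filter on low counts. Bmal1WT replicate 3, the library with the highest endothelial level, had the lowest mesothelial and macrophage levels. The part of these cell types in the endothelial difference was not tested.

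The tested genes outside the 35 whose log2 CPM followed the endothelial level most closely over the 6 libraries were Gja5, Gpr180, Pxdn, Gle1, Cttn, Aplnr, Rgs5, Ppfia1, Pmm2 and Mfng, with Pearson's r from 0.966 to 0.988. Gja5 encodes connexin 40 of arterial endothelium and was at 4.68, 3.28 and 8.93 CPM in the Bmal1WT libraries and 4.51, 1.81 and 1.99 CPM in the Bmal1KO libraries. Aplnr, the apelin receptor of endothelium, was at 35.2, 20.3 and 59.6 CPM in the Bmal1WT libraries and 27.4, 11.8 and 12.4 CPM in the Bmal1KO libraries. Both were highest in Bmal1WT replicate 3 and lowest in Bmal1KO replicate 2, as Cdh5 and Kdr were. Mfng, a glycosyltransferase that modifies Notch, was at 196, 178 and 246 CPM in the Bmal1WT libraries and 179, 121 and 124 CPM in the Bmal1KO libraries, and Pxdn, a peroxidase that crosslinks basement membrane collagen, was at 56.9, 48.4 and 68.0 CPM in the Bmal1WT libraries and 55.3, 31.1 and 39.8 CPM in the Bmal1KO libraries. These genes were picked for this likeness, which is therefore a description.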

How the data were processed

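Whole visceral adipose tissue RNA was measured in 6 libraries. Per the labels' protocols, cDNA was made from 2 ng of RNA with an oligo(dT) primer, amplified and tagmented with Nextera XT, and sequenced as paired reads of 38 bp. Such libraries do not mark the strand and carry no molecular identifiers. The authors deposited raw counts by gene symbol. The submitters' processing notes name STAR 2.7.3a, mm10 and featureCounts. Which annotation, strand setting and treatment of multi-mapped reads were used remains not given in the sources used here. No batch is labelled.

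The count table was fitted in R 4.3.3 with edgeR 4.0.16: filterByExpr (13859 of 55011 symbols kept), TMM scaling, the robust quasi-likelihood F-test without covariates, Benjamini-Hochberg adjustment over all genes tested and a threshold of 0.05. CPM uses the filtered, TMM-scaled library sizes, and log2 CPM a prior count of 2. SE is the unshrunken coefficient over the root of F. Gene models are from GENCODE M21 (mm10), promoter windows from RefSeq (GRCm38.p6). The floor for a gene near 0 was 3 counts and covers counting error only.

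The members, gene lists, pairs and promoter motifs were chosen with earlier results of these data known. Named were all members, up to 4 genes of smallest p per list, Arntl, Foxp3, the fixed cell type markers (Prox1 among them) and the 10 genes most like the members. Vegfa, Vegfb, Lpl, Cd36 and Fabp4 were chosen after their values were seen. Also tried were scaling by library size alone or by the size factors of DESeq2, other filters, DESeq2 1.42.0, limma 3.58.1 voom with quality weights, the replicate number as a block and libraries left out.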

Additional observations from a re-analysis of the deposited data

How the results depend on the processing

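The median log2 fold change of the blood endothelial genes stayed below 0 in all fits run, and 31 to 34 of the 35 were lower with 1 library left out (median -0.89 to -0.27). The count of members past the threshold was 0 with DESeq2's size factors, library size alone, at least 1 CPM in 3 libraries, limma voom, the replicate block and a threshold of 0.1. It was 6 with no filter on low counts, 2 with DESeq2, 3 without both replicates 1, and 0 to 3 with 1 library left out. The median over all genes fitted was 0.11 with library size alone, 0.45 with no filter and 0.47 with DESeq2, the last 2 including genes of few counts. Over all genes the count was 186 with no filter, 60 with DESeq2, 61 without both replicates 1 and 0 to 156 with 1 library left out. The cause was not tested. Of 489 fold changes of single members under an alternative, 469 kept their direction and side of the threshold, 14 became past it and 6 changed sign: Kdr, Sox7 and Vwf without Bmal1WT replicate 3, Podxl and Myct1 without Bmal1KO replicate 2 and Tek without Bmal1KO replicate 3. With 1 library left out, Kdr ran from -0.71 to 0.0632, Sox7 from -0.9923 to 0.0865, Vwf from -0.6337 to 0.0582, Podxl from -0.8239 to 0.0795, Myct1 from -0.8245 to 0.30 and Tek from -0.6969 to 0.0595. With the replicate number as a block, 34 of 35 members were lower (median -0.64), and 0 members and 0 genes were called. In that edgeR fit 14 of 35 members, 13 of them lower, had an unadjusted p under 0.05, against 1121 of 13859 genes tested. Deviations of same-numbered libraries correlated at -0.0695, 0.0942 and -0.0305, and the numbers are not said to mark a shared source. With a prior count of 0.5, none of the 10 pair differences moved by more than the spread between replicates. Leaving out 1 of 3 libraries cannot move a difference past that spread, pooled over both groups. Those fits therefore do not test how stable the pairs are. Erg had the fewest counts of the members, 3 to 21 per library.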

Other observations

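Several members are also made by platelets or red cells (Vwf, Pecam1 and Aqp1), and a list of 13 genes of those cells was read from the same fit. Of its 8 tested genes 5 were lower and 3 higher in Bmal1KO fat, with a median log2 fold change of -0.05 and 0 past edgeR's test. Pf4, a platelet chemokine that macrophages also express, had 3157, 2126 and 1298 counts in Bmal1WT and 931, 1922 and 2241 in Bmal1KO, and Alas2, the heme synthesis enzyme of red cell precursors, had 255, 221 and 372 counts in Bmal1WT and 189, 221 and 88 in Bmal1KO. Stromal progenitor genes were higher in 9 of 12 cases, by a median of 0.10. Pdgfra, a receptor that marks these cells, had 351, 213 and 241 counts in Bmal1WT and 338, 387 and 281 in Bmal1KO (log2 fold change 0.51, SE 0.24).

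Of 15 tested core clock genes 8 were higher and 7 lower (median 0.27), and 0 passed the test. Npas2, a partner of BMAL1 that can replace CLOCK, had 19, 18 and 3 counts in Bmal1WT and 37, 33 and 44 in Bmal1KO (log2 fold change 1.68, SE 0.68). Nr1d2, a nuclear receptor that represses Arntl, had 24, 13 and 20 counts in Bmal1WT and 37, 47 and 26 in Bmal1KO (log2 fold change 1.13, SE 0.52). Nfil3, a repressor of clock output genes, was on the lower side, with 125, 139 and 91 counts in Bmal1WT and 44, 91 and 53 in Bmal1KO (log2 fold change -0.77, SE 0.34), and its groups overlapped. For Npas2 and Nr1d2 all Bmal1KO libraries lay above all Bmal1WT libraries in CPM, and none of the 3 genes passed edgeR's test over all genes.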
